A study of Sus scrofa with 10 samples.

Results

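BASP1, MAP7D1, MYL9, TPM1 and CNN2 encode proteins of the plasma membrane and the cytoskeleton, and their transcripts were followed in porcine fetal fibroblasts sorted for SSEA-1, the Lewis X carbohydrate of the cell surface. All probe sets that carried 1 of these 5 gene symbols alone were taken, which gave 8 of the 24123 probe sets on the array and 5 of the 6765 genes with a symbol. The fibroblasts were grown from fetal tissue without the head, taken at day 24 from Danish Landrace/Yorkshire x Duroc crosses. Magnetic beads against SSEA-1 divided them into an SSEA1+ and an SSEA1- fraction, 5 of each, and RNA of each fraction was read on 1 Affymetrix porcine array. No treatment or genetic change was made to either fraction. The series calls the 5 replicates biological, but whether they were separate fetuses, cultures or sorts of 1 cell line is not given in the sources used here, nor is how pure the fractions were.

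The proteins work at different points of the cell's scaffold. BASP1 is a myristoylated protein on the inner face of the plasma membrane, abundant in nerve growth cones, where it binds phosphoinositides as GAP43 and MARCKS do, and in the nucleus it acts as a corepressor of WT1. MAP7D1 is a microtubule-binding protein of the MAP7 family, which recruits kinesin-1. MYL9 is the regulatory light chain of smooth muscle and non-muscle myosin II, whose phosphorylation starts contraction, TPM1 is a tropomyosin that winds along actin filaments, and CNN2 is a calponin that binds actin and restrains the myosin motor. Tropomyosins, calponins and myosin light chains are abundant in cultured fibroblasts, which build contractile stress fibres.

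Signals are on the log2 scale, summarised per probe set with RMA, so a difference of 1 is a doubling. BASP1, MYL9 and CNN2 had 1 probe set each, MAP7D1 had 2 and TPM1 had 3, numbered here as set 1, set 2 and set 3 in order of brightness. All 8 lay on every array above 0.352, a background level below which 95 in 100 of the 23 controls for absent sequences fell. The 5 genes were proposed because of how their signals differed between the fractions, so those differences are given as a description without a test.

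**Figure D1:**
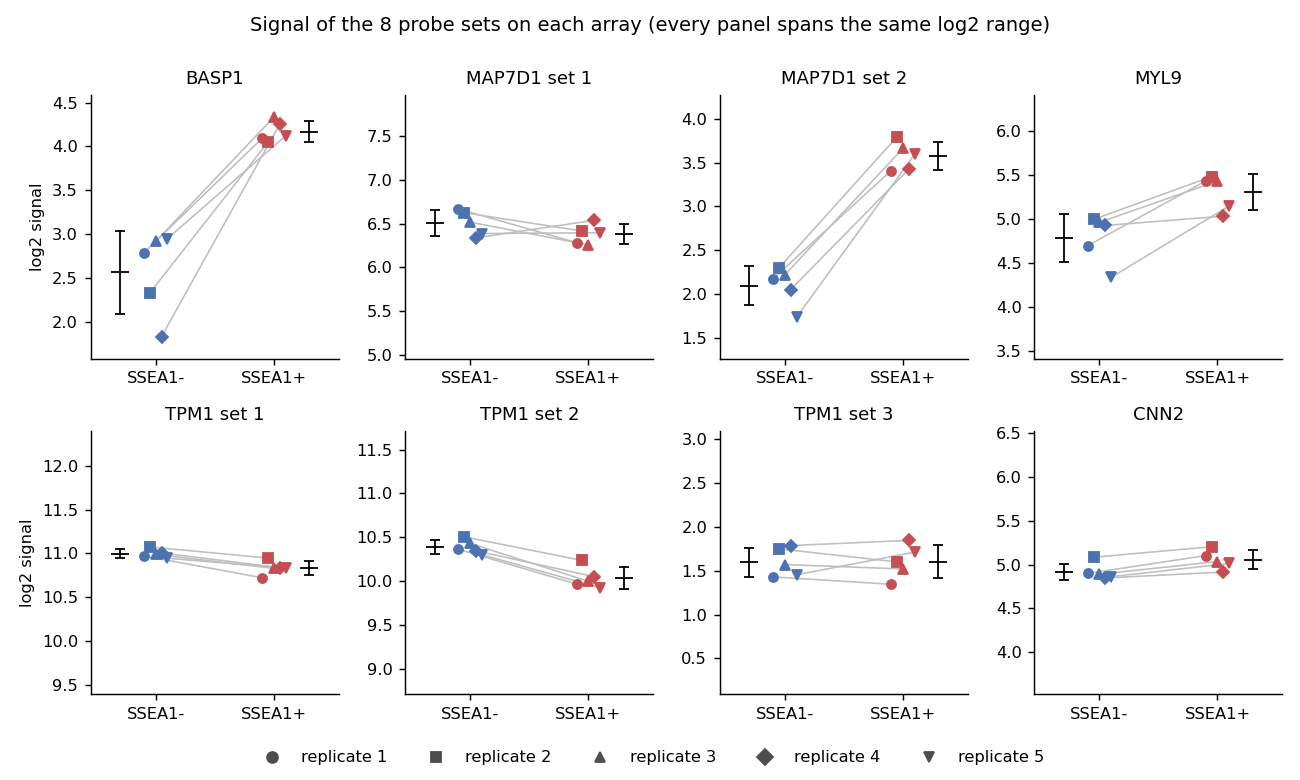
Log2 signal of each of the 8 probe sets (vertical axis) in the SSEA1- and SSEA1+ fractions (horizontal axis), with 1 point per array, grey lines joining arrays of the same replicate number, and black bars for mean ± SD of 5 arrays. BASP1 and the second MAP7D1 set sit more than 1 log2 unit apart between fractions, while the first MAP7D1 set, sets 1 and 3 of TPM1 and CNN2 overlap.

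The fractions did not overlap for 4 of the 8 probe sets, 3 of them higher and 1 lower in SSEA1+. Among all 23935 probe sets other than controls, 6.30% did not overlap, 2.98% higher and 3.32% lower in SSEA1+. Of the brightest sets of the 5 genes 2 did not overlap, those of BASP1 and MYL9, and over all genes the share was 8.51%. Since this contrast is what the genes were chosen on, nothing is read from the members' share. The median difference of the 8 sets was 0.07, against 0.0052 over all sets other than controls. In RNA from sorted fractions, fewer cells of a type and less RNA per cell cannot be told apart.

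BASP1 had the widest difference of the 5 genes. In the SSEA1+ arrays it read 4.09, 4.05, 4.33, 4.25 and 4.12 for replicates 1 to 5. In the SSEA1- arrays of the same numbers it read 2.79, 2.33, 2.92, 1.83 and 2.95. Every SSEA1+ array was above every SSEA1- array, and 1.10 log2 units separated the lowest of the first from the highest of the second. The means were 4.17 ± 0.12 and 2.56 ± 0.48 (SD, n = 5 each), a difference of 1.60 or 3.04-fold, which ranked 3 among those of all sets other than controls.

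BASP1 varied more among the SSEA1- arrays, much of it through 1 array. The SD among SSEA1- arrays was 4.00 times that among SSEA1+ arrays, or 2.40 times without SSEA1- replicate 4, and with all arrays 1.14% of probe sets other than controls varied as much or more among the SSEA1- arrays, against 63.0% among the SSEA1+ arrays. The low reading of 1.83 in SSEA1- replicate 4 is far below the 2.95 of replicate 5. Within replicate numbers the difference ran from 1.17 in replicate 5 to 2.42 in replicate 4, and it was positive in 5 of 5.

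The second MAP7D1 set differed nearly as much as BASP1. It read 3.41, 3.79, 3.66, 3.42 and 3.59 in SSEA1+ replicates 1 to 5. The SSEA1- arrays read 2.18, 2.30, 2.22, 2.05 and 1.74. The fractions were 1.11 apart at their nearest arrays. The means were 3.58 ± 0.16 and 2.10 ± 0.22 (SD, n = 5 each), a difference of 1.48 or 2.79-fold, positive in 5 of 5 pairs and between 1.23 and 1.86.

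The brighter MAP7D1 set did not show this. Its SSEA1+ arrays read 6.28, 6.41, 6.26, 6.54 and 6.40, and its SSEA1- arrays read 6.67, 6.62, 6.52, 6.34 and 6.39. The fractions overlapped, with SSEA1+ lower in 3 pairs and higher in 2, and the mean difference was -0.13. On each array the brighter set exceeded the dimmer one by between 2.60 and 3.11 in SSEA1+ and by between 4.28 and 4.65 in SSEA1-. The array annotation gives both sets the same gene, and the sequences behind them were not analysed here, so no single direction can be given for MAP7D1. The mean of both sets gave a difference of 0.67, which describes neither.

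MYL9, the myosin regulatory light chain, was higher in SSEA1+ by a smaller step. It read 5.43, 5.48, 5.43, 5.03 and 5.15 in SSEA1+ replicates 1 to 5. In SSEA1- it read 4.70, 5.00, 4.96, 4.93 and 4.34. The fractions only just parted, by 0.04 between SSEA1+ replicate 4 and SSEA1- replicate 2. The means were 5.31 ± 0.20 and 4.78 ± 0.28 (SD, n = 5 each), a difference of 0.52 or 1.44-fold. It was positive in 5 of 5 pairs, from 0.11 in replicate 4 to 0.81 in replicate 5.

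TPM1 was lower in SSEA1+ on its 2 bright sets. The first set read 10.72, 10.95, 10.83, 10.84 and 10.83 in SSEA1+ and 10.97, 11.07, 10.99, 11.01 and 10.95 in SSEA1-. Its fractions met at SSEA1+ replicate 2 and SSEA1- replicate 5, and its difference was -0.16, negative in 5 of 5 pairs. The second set read 9.97, 10.24, 10.00, 10.05 and 9.92 in SSEA1+ and 10.36, 10.51, 10.43, 10.34 and 10.30 in SSEA1-. These did not overlap, and the difference was -0.35, or 1.28-fold lower, with pair differences of -0.43 to -0.27. The gap between the bright sets was therefore wider in SSEA1+, at 0.80 ± 0.08 against 0.61 ± 0.05 (SD, n = 5 each). Set 3 of TPM1 was dim, at 1.61 ± 0.19 against 1.60 ± 0.16, and showed no direction, with 2 pairs higher and 3 lower.

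CNN2, a calponin found in non-muscle cells, had the smallest difference among the sets with 1 sign in all pairs. It read 5.10, 5.20, 5.03, 4.91 and 5.01 in SSEA1+ replicates 1 to 5. In SSEA1- it read 4.90, 5.08, 4.89, 4.85 and 4.86. The fractions overlapped because SSEA1- replicate 2 stood above the other SSEA1- arrays, yet SSEA1+ was higher in 5 of 5 pairs, by 0.07 to 0.20. The means were 5.05 ± 0.11 and 4.92 ± 0.10 (SD, n = 5 each), 0.14 apart.

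**Figure D2:**
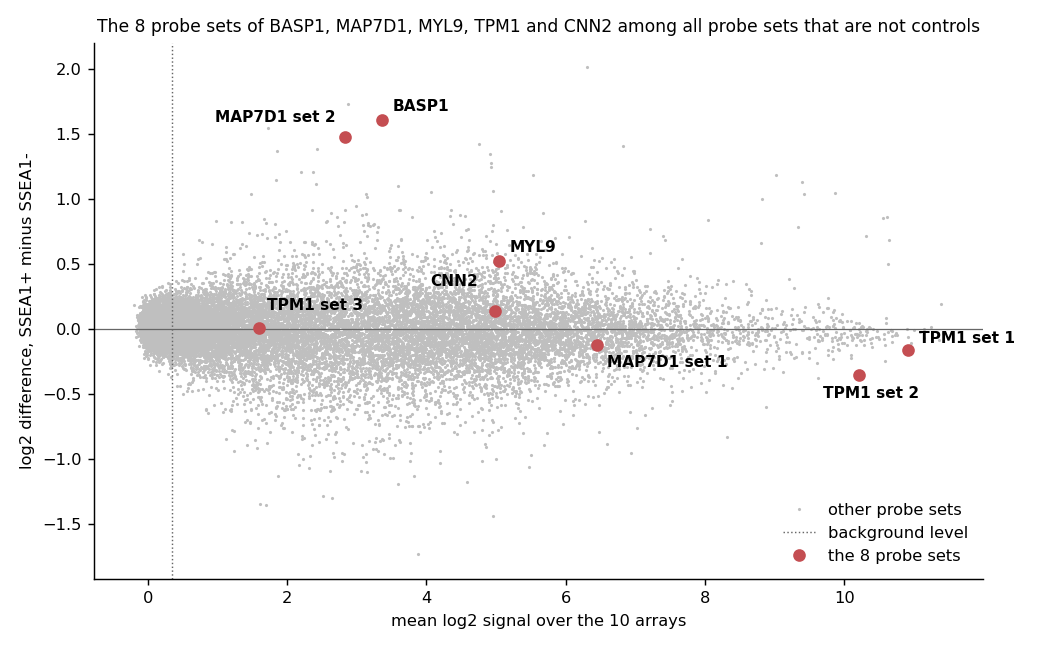
Log2 difference between fractions (vertical axis) against the mean log2 signal over the 10 arrays (horizontal axis) for the 23935 probe sets other than controls, with the 8 probe sets in red and the background level as a dotted line. BASP1 at 1.60 and the second MAP7D1 set at 1.48 lie near the upper edge, and the bright TPM1 sets lie below 0 at the right.

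The 5 genes thus shared no single direction between fractions. Within fractions, 5 of the 8 sets were highest in replicate 2 of both, those of MYL9 and CNN2, the second MAP7D1 set and the 2 bright TPM1 sets. Over the 10 arrays, deviations of the second MAP7D1 set from its fraction means correlated with those of MYL9 (r = 0.74), the first and second TPM1 sets (0.72 and 0.68) and CNN2 (0.60). Those of BASP1 and MYL9 correlated at -0.46. These values are descriptions, since the sets share the same arrays and their normalization. BASP1 was lowest in SSEA1- replicate 4, and MYL9 and the second MAP7D1 set in SSEA1- replicate 5.

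The fractions also differed in the controls added to the RNA. The poly-A spike-in controls, relative to the hybridisation controls, lay between -3.45 and -2.66 in SSEA1+ and between -4.32 and -3.80 in SSEA1-. The difference was 0.82 on the log2 scale (exact two-sided permutation p = 0.00794, the smallest that 252 splits of 5 against 5 can give, 0.0238 adjusted over 3 controls). Exchanging fractions only within replicate numbers, an exact two-sided test chosen after seeing the data, gave p = 0.0625, the smallest its 32 arrangements allow, with SSEA1+ higher in 5 of 5 pairs. Of 5 control sets for ribosomal RNA, 3 were higher in SSEA1+ in limma. The 28S sets differed by 1.77 (adjusted p = 0.000591) and 1.46 (adjusted p = 0.00105), about the size of the BASP1 difference, and an 18S set by 1.00 (adjusted p = 0.0342), while the other 18S set differed by 0.04 and the 5S set by -0.33 without passing. The part of ribosomal RNA in the members' differences was not tested. The 3′ minus 5′ signal, a sign of RNA integrity, was 1.17 ± 0.07 against 1.24 ± 0.10 for actin (exact permutation p = 0.302) and 0.88 ± 0.08 against 0.95 ± 0.06 for GAPDH (p = 0.151, same exact test, SD, n = 5 each). With the poly-A level as a covariate, BASP1 differed by 1.65 ± 0.35 and the second MAP7D1 set by 1.35 ± 0.21, whereas MYL9 differed by 0.20 ± 0.23 (SE). With the replicate block as a further term, BASP1 differed by 2.46 ± 0.40, the second MAP7D1 set by 1.30 ± 0.29 and MYL9 by 0.24 ± 0.31 (SE). No SSEA1+ array had a poly-A level as low as any SSEA1- array, so these values are extrapolated by the model.

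Markers of the cells a fetal culture can hold were read beside these genes. Of 9 fibroblast markers 7 were measured and all 7 were above background on every array, with COL1A2 the single one that passed the test, higher in SSEA1+. The linear signals of the 5 measured of 7 smooth muscle markers summed to between 3509 and 4279 in SSEA1+ and between 3409 and 4373 in SSEA1-, none of the 5 passed, and ACTA2, which is also a stress fibre actin, read 10.90 against 11.01. For 5 of 8 skeletal muscle markers the sums were 16.1 to 17.5 and 13.5 to 17.3, and MYOD1 and MYF5 were near background. For 3 of 9 neural markers they were 66.8 to 85.8 and 62.8 to 87.0, with STMN2 at 6.22 against 6.16 and SOX10 and GFAP below 1. For the 6 epithelial markers they were 35.7 to 92.4 and 35.5 to 105.3, mostly KRT8, while EPCAM read 0.44 against 0.20. For the 6 endothelial markers they were 7.23 to 8.07 and 7.50 to 7.82, with CDH5 and TEK below background on all arrays, and for 5 of 7 blood markers 22.9 to 28.7 and 25.4 to 29.8, with PTPRC and SPI1 below background and HBB at 4.38 against 4.54. Of the 30 measured markers outside the fibroblast list 0 passed limma. An unadjusted p under 0.05 was found for 5, TNNT1, EPCAM, KRT19, CDH1 and CLDN4, each higher in SSEA1+. The epithelial markers KRT8 and KRT18 went the other way, at -0.05 and -0.09 (unadjusted p = 0.873 and 0.712 in limma). Over all 24123 probe sets 4790 had an unadjusted p under 0.05 in the same fit. EPCAM was above background on 4 SSEA1+ arrays and 1 SSEA1- array, and CDH1 on 5 and 3. The part of the marked cell types in the differences was not tested.

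Close relatives of the 5 genes were measured for 10 of 15 names, and none passed limma at an adjusted p under 0.05. With only 10 relatives, nothing is read from this count. Taking the brightest set for every gene, 7.39% of all 6765 passed (3.21% higher and 4.18% lower). Over all probe sets the share was 6.20%, 2.72% higher and 3.48% lower. Which direction had more calls depended on the scaling, since 839 probe sets were lower and 656 higher as deposited, 688 and 784 with repeated quantile normalization, and 709 and 791 with cyclic loess. Among the membrane proteins most like BASP1, GAP43 read 1.93 ± 0.25 against 2.19 ± 0.17 and MARCKS 9.17 ± 0.07 against 9.03 ± 0.09 (SD, n = 5 each). Their differences of -0.26 and 0.14 had adjusted p of 0.247 and 0.274 in limma. WT1, the factor BASP1 represses with, was near background, at 0.46 against 0.35. Of the MAP7 family only MAP7D3 was measured besides MAP7D1, dim and at -0.02.

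The other tropomyosins read lower in SSEA1+, like the bright TPM1 sets. TPM3 differed by -0.23 ± 0.07 (SE, adjusted p = 0.0774 in limma) and was lower in 5 of 5 pairs, and in a fit with a term for the replicate number, the replicate block, its adjusted p was 0.0475. Its second brightest set read -0.07 and did not pass. TPM4 differed by -0.14, also lower in 5 of 5 pairs, with -0.13 on its other set, and TPM2 by -0.08, lower in 3 of 5. The brightest sets of these 3 genes stayed below 0 under every scaling tried, but neither TPM2 nor TPM4 passed with or without the block.

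The calponins differed in sign. CNN3, an actin-binding calponin of non-muscle cells, read 8.04 ± 0.09 against 8.29 ± 0.09 (SD, n = 5 each), and its fractions did not overlap. Its difference of -0.25 ± 0.07 (SE) had an adjusted p of 0.0573 in limma and 0.0323 with the replicate block, and it was negative in 5 of 5 pairs, between -0.33 and -0.18. CNN2 read higher in all 5 of the same pairs. CNN1, the smooth muscle calponin, read 6.35 ± 0.28 against 6.27 ± 0.33 with overlapping fractions, and without SSEA1+ replicate 2 or SSEA1- replicate 5 its difference was below 0. MYL6, the essential light chain that shares myosin II with MYL9, read lower by 0.17 with an adjusted p of 0.188 in limma.

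**Figure D3:**
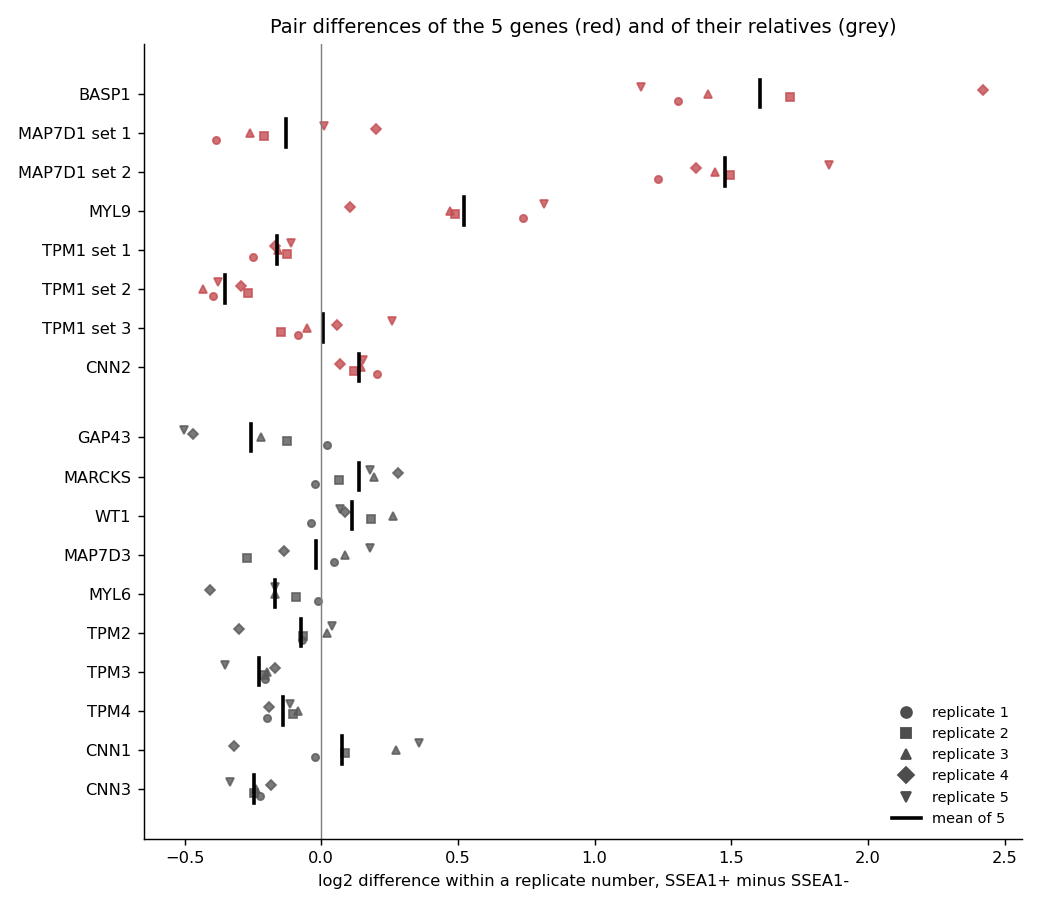
Log2 difference between the SSEA1+ and SSEA1- arrays of the same replicate number (horizontal axis) for the 8 probe sets in red and the brightest probe set of 10 relatives in grey (vertical axis), with 1 symbol per replicate number and a black bar for the mean of 5. TPM3, TPM4 and CNN3 lie left of 0 in all 5 pairs, and no relative reaches the differences of BASP1 and the second MAP7D1 set.

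The wider cytoskeleton was read from 6 lists of 207 genes, of which 132 were measured. In limma 7 of the 132 rose and 5 fell in SSEA1+ at an adjusted p under 0.05, together 9.09%, against 7.39% of all 6765 genes. With the replicate block 13 rose and 9 fell, or 16.7%, against 14.3% of all genes (5.65% higher and 8.62% lower). With repeated quantile normalization 9 rose and 4 fell, and with cyclic loess 11 rose and 5 fell. Over all probe sets 53.3% and 52.7% of the calls were rises with these scalings, against 43.9% as deposited. The median difference of the 132 was 0.02, against -0.0085 over all genes. Without SSEA1+ replicate 5 or SSEA1- replicate 5, 4 of the 132 passed, and in both cases 0 rose and 4 fell. Over all 24123 probe sets, 853 and 836 passed without those arrays, 395 and 405 of them higher, against 1495 with all arrays. Without SSEA1+ replicate 3 or SSEA1- replicate 3, 3 rose and 4 fell, while 1035 and 836 of all probe sets passed. With both arrays of a replicate number left out, 2 rose and 2 fell without replicate 1, and 2 and 4 without replicate 2. Without replicate 3, 1 rose and 2 fell, and without replicate 4, 4 rose and 5 fell. Without replicate 5, 0 rose and 1 fell. Over all probe sets 481, 1357, 461, 1407 and 384 passed without both arrays of replicates 1, 2, 3, 4 and 5 in turn. With the poly-A level as a covariate 0 of the 132 passed limma. An unadjusted p under 0.05 was left for 18 of them, against 39 without the covariate. Over all 24123 probe sets 12 passed with the covariate, and 2932 had an unadjusted p under 0.05, against 4790 without it.

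**Figure D4:**
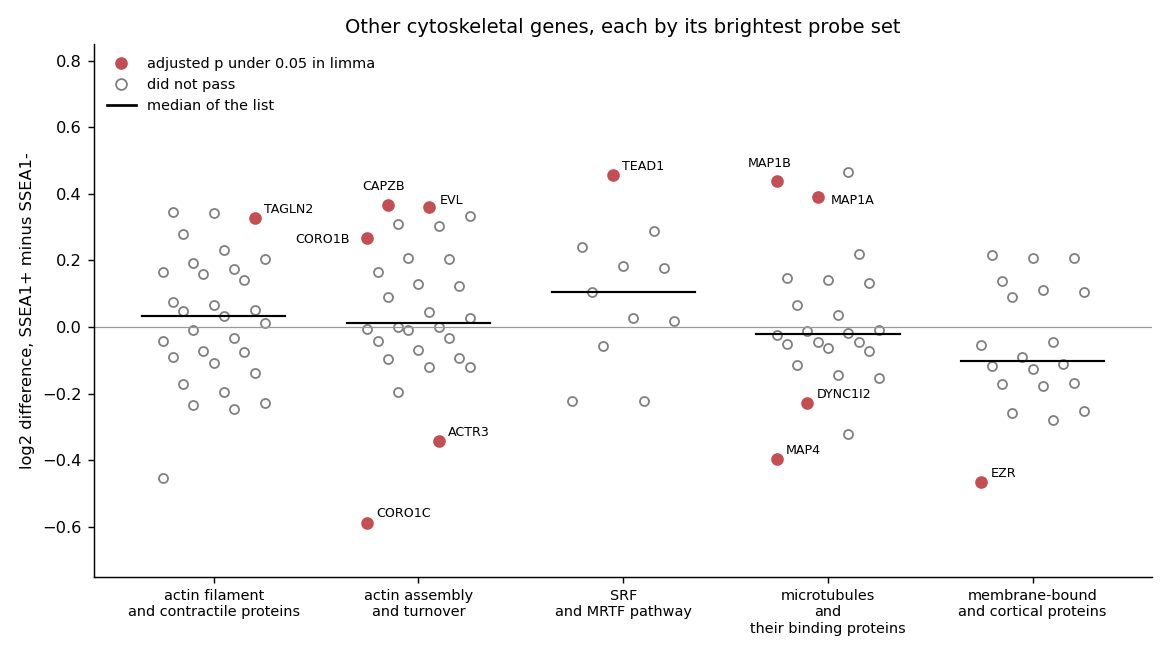
Log2 difference between fractions (vertical axis) of the measured genes of 5 of the 6 cytoskeletal lists (horizontal axis), 1 point per gene from its brightest probe set, filled and named where limma's adjusted p was under 0.05, with a black bar for the median of each list. The 12 named genes split into 7 above and 5 below 0.

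Among 28 genes of actin assembly and turnover, 3 rose and 2 fell, or 17.9%, against 7.39% of all genes. With counts this small nothing is read from the share of any list. The median of this list was 0.01. CORO1C, a coronin that binds actin filaments, fell by 0.59 on the log2 scale (SE 0.09, adjusted p = 0.00328 in limma). ACTR3, a core subunit of the Arp2/3 complex that starts branched filaments, fell by 0.34 (SE 0.06, adjusted p = 0.00620), and its second set fell by 0.46 with an adjusted p of 0.00119. EVL, which promotes filament elongation, rose by 0.36, and CAPZB, a subunit of the capping protein, rose by 0.37 with 0.81 on its second set. The third CAPZB set read 0.20 at an adjusted p of 0.217 in limma and did not pass. CORO1B, another coronin, named after its value was seen, rose by 0.27 at an adjusted p of 0.0458. The calls of CORO1C and ACTR3 held without any single array, that of ACTR3 ended without both arrays of replicate 5, and those of EVL and CAPZB ended without either array of replicate 5, for CAPZB also without SSEA1- replicate 1. Without both arrays of a number, the call of EVL ended for replicates 1, 3, 4 and 5, and that of CAPZB for replicates 1, 2, 3 and 5. The second EVL set read -0.07, and the mean of both did not pass.

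Among 31 actin filament and contractile genes, TAGLN2, an actin-binding protein of the calponin family, was the single gene that passed. This was 3.23%, against 7.39% of all genes. TAGLN2 is the gene described next. It rose by 0.33 at an adjusted p of 0.0499 in limma, at the edge of the threshold, and the call ended with median centring and when 8 of the 10 arrays were left out singly, the exceptions being SSEA1+ replicate 2 and SSEA1- replicate 4. It also ended without control probe sets and when replicate 1, 2, 3 or 5 was left out as a pair. Averaging the sets of every gene ended the call too, although TAGLN2 itself had a single set. With the replicate block 3 genes of the list rose and 3 fell, or 19.4%, against 14.3% of all genes. TLN1, which links integrins to actin, read 4.59 against 4.24 with an adjusted p of 0.0657, or 0.0358 with the block. The median of the list was 0.03.

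The SRF and MRTF pathway, through which actin monomers control transcription of cytoskeletal genes, had 11 measured genes. Of these 1 passed, or 9.09%, against 7.39% of all genes. TEAD1, a DNA-binding partner of YAP1, rose by 0.46 (SE 0.10, adjusted p = 0.0200 in limma), and the call ended without either array of replicate 5, when replicate 1, 4 or 5 was left out as a pair, and with the mean of its sets. CYR61, a secreted matrix protein induced through this route, read 9.16 against 9.38 with an adjusted p of 0.145, and FHOD1 and VGLL3 differed by -0.22 and 0.18 without passing.

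Among 24 genes of microtubules and their binding proteins, 2 rose and 2 fell, or 16.7%, against 7.39% of all genes. The median was -0.02. MAP4, the main microtubule-stabilising protein of non-neuronal cells, fell by 0.40 on its brightest set (SE 0.08, adjusted p = 0.0141 in limma), but its other sets gave 0.09 and 0.32, and the mean of all 3 gave 0.0064. Its call also ended without both arrays of replicate 1, 3 or 5. DYNC1I2, an intermediate chain of dynein, fell by 0.23 and lost the call with repeated quantile normalization, with the mean of its sets, without both arrays of any replicate number, and without any single array but SSEA1+ replicate 4. MAP1A, a microtubule-binding protein of neurons and other cells, rose by 0.39, with 0.47 on its second set, which also passed. The third MAP1A set, near background, read 0.14 at an adjusted p of 0.561 in limma. MAP1B, the close relative of MAP1A, rose by 0.44 but was dim, at 1.08 against 0.64. The call of MAP1A ended without any 1 of 8 arrays, SSEA1- replicates 1 and 2 being the exceptions, and that of MAP1B without any 1 of 6, namely each array of replicates 3 and 5, SSEA1+ replicate 2 and SSEA1- replicate 1. Pairwise, the call of MAP1A ended without replicate 2, 3, 4 or 5 and that of MAP1B without replicate 2, 3 or 5, and the latter also with the mean of its sets.

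Of 20 measured genes listed as membrane-bound and cortical proteins, EZR alone passed, or 5%, against 7.39% of all genes. The list also counts WT1, the nuclear partner of BASP1, which is not a membrane protein. EZR, or ezrin, which ties actin to the plasma membrane, fell by 0.47 (SE 0.10, adjusted p = 0.0138 in limma), and its fractions of 6.34 ± 0.16 and 6.81 ± 0.16 (SD, n = 5 each) did not overlap. The call held without any single array, but leaving out the pair of replicate 1, 3 or 5 ended it. Its relative MSN, or moesin, read 7.83 against 7.61 with an adjusted p of 0.135. ADD3, an adducin that caps filaments at the membrane, differed by -0.25, and FLOT2, a protein of membrane microdomains, by 0.21 on a dim set, neither past the threshold. The median of the list was -0.10, with 7 genes higher and 13 lower.

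The arrays whose BASP1 deviates from its fraction mean were compared with all other genes above background, to find those that varied most alike within the fractions. Over the 10 arrays, and among 5847 genes, TPGS2, a subunit of the tubulin polyglutamylase complex, was closest to BASP1 (Pearson r = 0.94, Spearman coefficient = 0.95), followed by the receptor FGFR1 (0.92 and 0.88) and SMAD3 (0.89 and 0.82). Without SSEA1- replicates 4 and 5, the arrays farthest from the median, the Pearson values were 0.78, 0.76 and 0.67. None of the 3 passed limma between the fractions, with differences of 0.14, 0.17 and 0.02. Being the highest of many, these values carry no test.

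For MYL9 the closest was DES, the muscle intermediate filament protein (r = 0.96, Spearman = 0.75), and it was 0.86 without SSEA1- replicate 5 and SSEA1+ replicate 4. NANOS1 (r = 0.96, Spearman = 0.81) and NKIRAS1 (r = 0.95, Spearman = 0.95) followed, at 0.86 and 0.82 without those arrays. For the brighter MAP7D1 set they were PARP9 (r = 0.97, Spearman = 0.90), MYH9, the heavy chain of non-muscle myosin II (r = 0.94, Spearman = 0.89), and DLG5 (r = 0.88, Spearman = 0.96). For the first TPM1 set they were HTRA1, CUX1 and TMEM38A (r = 0.92, 0.92 and 0.91; Spearman = 0.89, 0.83 and 0.95), and for CNN2 they were SC5D, ITFG1 and CDO1 (r = 0.98, 0.97 and 0.96; Spearman = 0.94, 0.93 and 0.89). None of these genes passed limma's threshold between the fractions.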

How the data were processed

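Per the submitters' processing notes the authors used RMA, and the deposited log2 signals, 1 per probe set and array, were used unchanged. No source used here states the RMA version or its background step, and 4.55% to 8.16% of each array lies below 0. Array medians ran from 1.15 to 1.19, and correlations were 0.991 to 0.996 within and 0.987 to 0.995 between fractions. Fraction and replicate came from the sample titles. Of 24123 probe sets, 10099 had 1 symbol in the platform annotation and 198 had several. A gene was read from its brightest probe set, controls excluded.

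Fractions were compared with limma 3.58.1 in R 4.3.3 on all probe sets, 188 controls included, with Benjamini-Hochberg adjustment over all of them and a threshold of 0.05. The procedure was tested on simulated data. Named genes were the members, up to 4 genes of smallest p per list, close relatives and the 3 genes closest in deviation. The members and lists were chosen with earlier results of these data known. The main limma fit did not use the replicate numbers, so p-values given without mention of the block are unpaired. Replicate numbers were treated as pairs in the pair differences, the pair leave-outs and the replicate block. The series text has each biological replicate give both fractions. After subtracting fraction means, arrays sharing a number correlated at 0.214, 0.580, 0.356, 0.119 and 0.247. The number of arrays limits precision, and p-values measure the spread between these samples. Alternatives covered scaling, the block, the poly-A covariate, the variance model, filters and leave-outs. Of the 6 gene lists, 1 enters the totals and is otherwise not reported here.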

Additional observations from a re-analysis of the deposited data

Results flagged for a closer look

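Among 86 groups of 5 values, 5 had an array farther from the others than Dixon's 95% limit allows, where chance gives about 1 in 20 groups. CNN2 read 5.08 in SSEA1- replicate 2, against 4.85 to 4.90 in the other SSEA1- arrays, and this array is what makes the CNN2 fractions overlap. ADD3 read 6.61 in SSEA1- replicate 5, against 6.21 to 6.28. ARHGDIA read 4.18 in SSEA1+ replicate 3, against 3.74 to 3.86. RHOB read 6.50 in SSEA1- replicate 1, against 6.19 to 6.27. VGLL3 read 6.13 in SSEA1+ replicate 4, against 6.48 to 6.55.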

How the results depend on the processing

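The probe set count of 1495 was 2430 at a threshold of 0.1, 2832 with the replicate block, 12 with the poly-A covariate and 4 with both; it ran from 836 to 1834 without single arrays and from 384 to 1407 without pairs. The 12 cytoskeletal genes were 21 at a threshold of 0.1, 22 with the replicate block, 7 when all sets of a gene were averaged and 0 with the poly-A covariate, alone or with the block (18 and 8 at an unadjusted p under 0.05, limma); they ran from 4 to 14 without single arrays and from 1 to 9 without pairs. Over all probe sets 2932 and 2706 had an unadjusted p under 0.05 in limma with the covariate, alone and with the block. Among the cytoskeletal genes 58.3% of the calls were rises, against 69.2% after repeated quantile normalization and 68.8% after cyclic loess. With these scalings 9 rose and 4 fell and 11 rose and 5 fell. Without either array of replicate 5, 0 of 4 calls were rises. Over all probe sets the share of rises also moved with the scaling. It was 43.9% as deposited, 53.3% after repeated quantile normalization and 52.7% after cyclic loess. Without SSEA1+ replicate 5 it was 46.3%, and without SSEA1- replicate 5 it was 48.4%.

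The differences of BASP1 ran from 1.40 to 1.71 and those of MYL9 from 0.41 to 0.63 over the leave-outs, and of 194 member values under alternatives 187 moved by less than 1 SD. The others were under the poly-A covariate, alone or with the block, or the mean of the MAP7D1 sets; with both, the second TPM1 set read -0.25 and the first MAP7D1 set 0.21, and with the covariate alone the latter read 0.0029. Signs of genes without a call turned in few settings. With the poly-A covariate they were ADD3 at 0.072, CNN1 at -0.37 and MAP7D3 at 0.050. With the block beside it they were ADD3 at 0.18, CNN1 at -0.53, FLOT2 at -0.056, VGLL3 at -0.27 and WT1 at -0.10, and of genes with a call MAP1B at -0.24 and MAP4 at 0.040. MAP4 read 0.0064 with the mean of its sets. CNN1 read -0.0018 without SSEA1+ replicate 2 and -0.063 without SSEA1- replicate 5, within a leave-out range of -0.063 to 0.17. MAP7D3 read 0.02 without SSEA1+ replicate 1, 0.038 without SSEA1- replicate 2, 0.044 without replicate 2 and 0.0099 without replicate 4, within a range of -0.078 to 0.044. The cause was not tested. The block ended no call. Signal near background limits MAP1B, WT1, FLOT2 and set 3 of TPM1.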
